A study of Arabidopsis thaliana with 6 samples.

Results

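GI (AT1G22770) and COR27 (AT5G42900) are a pair of Arabidopsis thaliana genes tied to the circadian clock. They were chosen by name, each read by its single probe set assigned to 1 gene, and they are 2 of 13356 genes with such a probe set among 22746 probe sets. The RNA came from whole seedlings of the Col-0 ecotype, 15 days old, and was hybridised to Affymetrix arrays. The 3 gapcp1gapcp2 double mutant arrays were set against 3 wild type arrays, each titled as a biological replicate, and the sets of both genotypes grew at the same time. The mutated genes, GAPCP1 and GAPCP2, code for the forms of glyceraldehyde-3-phosphate dehydrogenase, a glycolytic enzyme, that work in plastids, and the labels do not name the mutant alleles. All seedlings of both genotypes had been treated with 0.75 µM abscisic acid (ABA), a stress hormone, for 8 days, at 22 °C with a day of 16 h and a night of 8 h. The sources used here do not give the time of day at harvest.

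The plant clock is a loop of transcription factors in which genes expressed in the morning and genes expressed in the evening repress each other, so a transcript of either kind changes strongly through the day. GI, or GIGANTEA, encodes a large protein expressed towards the evening that stabilises the photoreceptor ZEITLUPE in blue light and promotes flowering in long days. COR27, or COLD REGULATED GENE 27, encodes a small nuclear protein that represses other evening clock genes, and its transcript peaks late in the day and is raised by cold. The comparison asks whether either transcript differed between the genotypes, and whether the 2 genes varied together from array to array, as transcripts of a like phase could if harvest times differed.

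Array medians lay between 105.8 and 113.0 in the deposited intensity units, with 395 to 785 values below 0 per array. With 3 arrays per genotype, precision is limited by their number. The seedling label was checked against markers. A listed gene is called measured where a probe set is named for it alone, and 8730 probe sets were unnamed here. Of 8 listed root markers 4 were measured and of 8 green tissue markers 3, and 0 of these were at 0 on all arrays. The photosynthesis regulator gene RCA had intensities of 9203 to 10046 in the mutant and 9604 to 9970.3 in wild type. Of 10 embryo and seed markers 1 was measured, the seed storage protein gene PAP85, with 85.4, 3.73 and 94.9 in mutant 1, 2 and 3 against 88.1, 97.9 and 108 in wild type 1, 2 and 3. PAP85 was above 0 on every array as well, so a value above 0 cannot tell seedling from seed tissue. No probe set is named for GAPCP1 or GAPCP2 here, so the genotype labels were not checked by the targeted genes.

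GI had intensities of 966, 1039 and 1136 in mutant 1, 2 and 3, against 1083, 890.1 and 1071 in wild type 1, 2 and 3. The groups overlapped: the highest array was a mutant one, the lowest a wild type one, and mutant 2 lay between 2 wild type arrays. The mean was 1047 ± 85.3 in the mutant and 1015 ± 108 in wild type (SD, n = 3 each). On the log2(intensity + 16) scale the mutant was 0.047 ± 0.11 (SE) above wild type. The limma adjusted p was 1.00 over all probe sets tested (unadjusted 0.677). The 95% interval of the difference ran from -0.20 to 0.30, or from 0.870 to 1.23 as a ratio of mutant over wild type. An exact two-sided permutation test over the arrays gave p = 0.70, where 3 against 3 cannot go below 0.10.

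COR27 had intensities of 295, 504 and 425 in mutant 1, 2 and 3, against 567, 291 and 411 in wild type 1, 2 and 3. Wild type held both the highest and the lowest array, so the mutant values lay wholly within the wild type range. The mean was 408 ± 106 in the mutant and 423 ± 139 in wild type (SD, n = 3 each). The log2 difference was -0.033 ± 0.25 (SE), with a limma adjusted p of 1.00 (unadjusted 0.897) and an exact permutation p of 1.00. Its 95% interval ran from -0.60 to 0.54, a ratio of 0.659 to 1.45, and was thus 1.14 wide on the log2 scale against 0.50 for GI. These arrays thus bound a genotype difference of COR27 less tightly than one of GI.

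**Figure D1:**
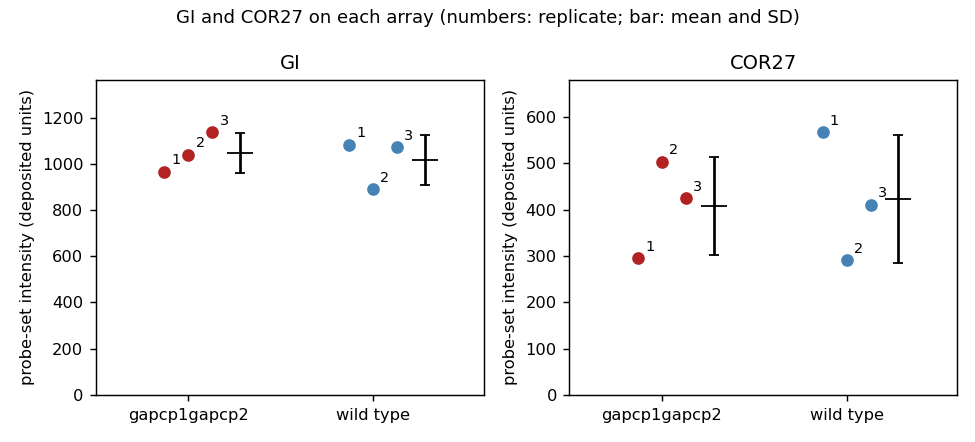
Deposited probe-set intensities (vertical axes, starting at 0) of GI and COR27 on each array, with the mutant at the left of each panel and wild type at the right. Points are arrays with their replicate number, and black bars give mean and SD (n = 3). COR27 of mutant 1 (295) and wild type 2 (291) lies well under the other 4 arrays, and the genotypes overlap for both genes.

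Neither member was among the probe sets called. Of 15922 probe sets tested, 0 (0%) were called by limma at the adjusted threshold of 0.05, while 273 (1.71%) fell below 0.05 before adjustment. Arrays of the 2 genotypes did not overlap for 999 probe sets (6.27%), and for 0 of the 2 members. The direction of both differences depended on single arrays. Leaving out mutant 3 turned that of GI to -0.012, and leaving out wild type 2 turned it to -0.043. For COR27 the value became 0.17 without mutant 1 and 0.20 without wild type 1. The limma adjusted p stayed at 1.00, to 3 digits, in the main fit and in the fits without those arrays. The exception was 0.999 for both genes without wild type 1. The genotype difference of COR27 minus that of GI was -0.080, with -1.36 in the mutant and -1.28 in wild type for log2 of COR27 over GI, and an exact two-sided permutation p of 0.70.

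**Figure D2:**
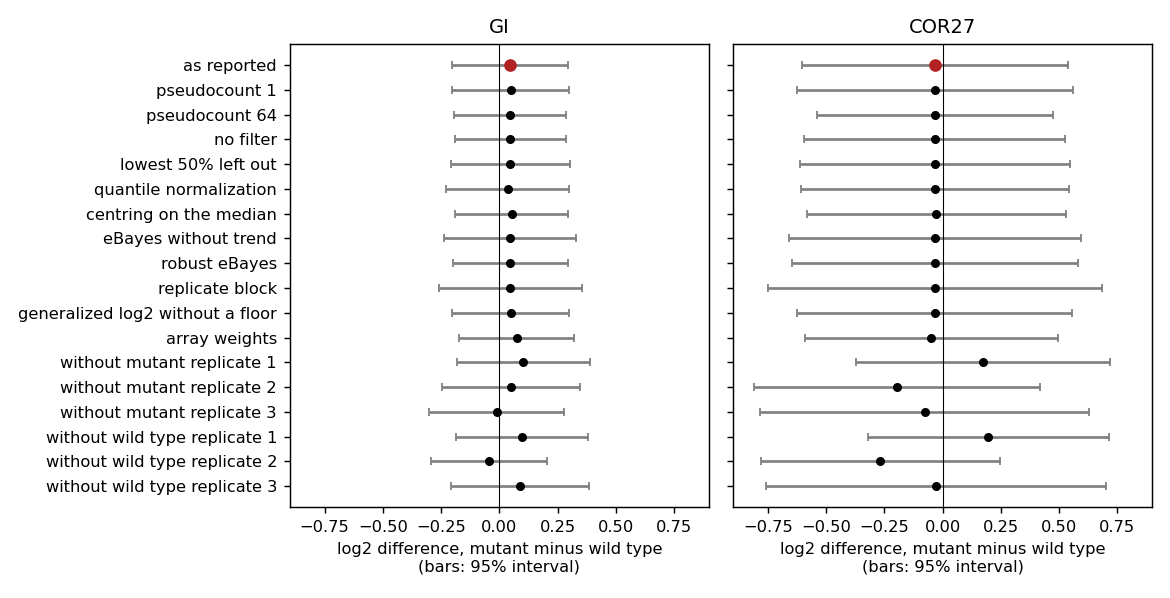
Log2 difference of the mutant minus wild type (horizontal axes) for GI and COR27, with 95% intervals from limma, as reported (red, top) and under each alternative below it. Every interval spans 0, and the estimate for COR27 moves between -0.27 and 0.20 when 1 array is left out, against -0.043 to 0.10 for GI.

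COR27 varied more between arrays than GI did. It ranged 1.95-fold from its lowest to its highest array, and GI 1.28-fold. Within the mutant the highest array exceeded the lowest 1.71-fold for COR27 and 1.18-fold for GI, and within wild type 1.95-fold and 1.22-fold. The SD within genotypes on the log2 scale was 0.42 for COR27, larger than that of 94.8% of the probe sets tested, and 0.14 for GI, larger than that of 37.6%, where the median probe set had 0.16. Between the genotypes lay 0.232% of the variance of COR27 over arrays and 4.21% of that of GI.

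Both genes were lowest in the same arrays. GI was at 966 in mutant 1 and 890.1 in wild type 2 and between 1039 and 1136 in the other 4 arrays, and COR27 was at 295 in mutant 1 and 291 in wild type 2 and between 411 and 567 in the other 4. Of the 15 pairs of arrays, GI and COR27 put 12 in the same order and 3 in the opposite order. The 3 exceptions were all among the other 4 arrays, where GI was highest in mutant 3 and COR27 in wild type 1. Over the 6 arrays Pearson's r was 0.76 (exact two-sided permutation p = 0.082) and Spearman's rho was 0.71 (exact permutation p = 0.14), and this was the one relation tested. Neither passed 0.05. With genotype means removed r was 0.79 (exact permutation p = 0.17, permuted within genotypes). Leaving out the 2 arrays farthest from the median of GI, which were mutant 1 and wild type 2, gave r = -0.37 over the 4 others (exact permutation p = 0.71), so the relation was not seen without both. Leaving them out also narrows the range of GI, and without mutant 1 alone r was 0.74, without wild type 2 alone 0.61. No batch or harvest label was given, and 3 arrays per genotype are too few for a value within each.

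**Figure D3:**
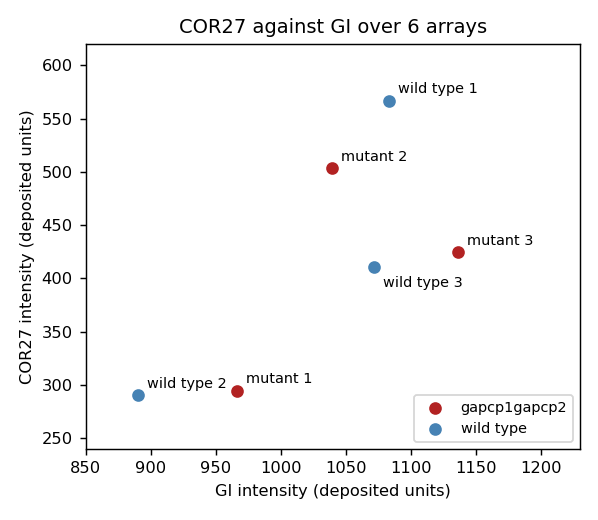
COR27 intensity (vertical) against GI intensity (horizontal) on the 6 arrays, in the deposited units, with axes that do not start at 0. Mutant 1 and wild type 2 lie at the lower left, and among the other 4 arrays COR27 is highest in wild type 1 (567) while GI is highest in mutant 3 (1136).

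Many other probe sets had an r with GI or with COR27 as high as that between the pair, more of them with COR27. Of the other 15921 probe sets, 5.70% had an r with GI at least as high as that of COR27, and 11.9% had an r with COR27 at least as high as that of GI. Counting both signs, the shares were 11.4% and 22.4%. COR27 had an r over 0.9 with 835 probe sets (5.24%) and under -0.9 with 650 (4.08%), and GI with 167 (1.05%) and 184 (1.16%). All these values share the same 6 RNA samples. The first principal component of the arrays, which held 43.0% of the variance over probe sets, held 94.5% of the variance of COR27 and 49.5% of that of GI. On it mutant 1 (-23.3) and wild type 2 (-20.5) lay at one end and mutant 2 (22.3) and wild type 1 (17.2) at the other.

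**Figure D4:**
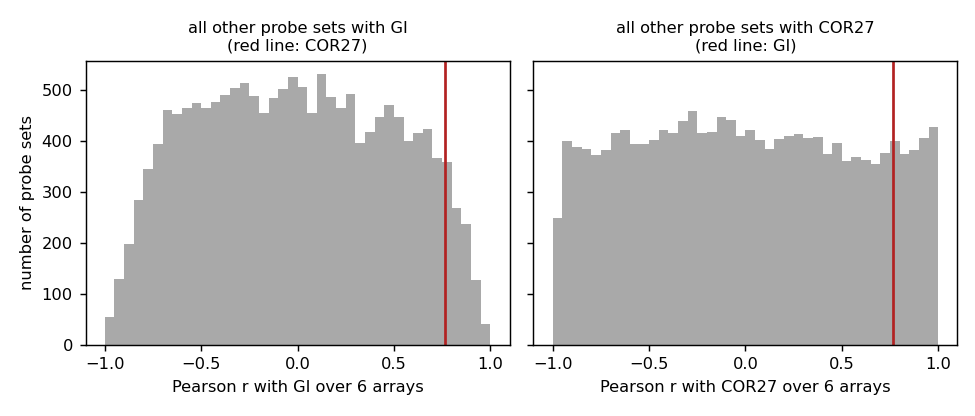
Number of probe sets (vertical) by Pearson's r over the 6 arrays (horizontal), with GI in the left panel and with COR27 in the right panel. The red line marks the r of 0.76 between the 2 genes, beyond which lie 5.70% of the probe sets for GI and 11.9% for COR27, and more probe sets lie near either end for COR27 than for GI.

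Other genes were ranked by r with each member, as a description, and r takes no account of the size of a change. Most like GI by r over the 6 arrays were AT3G50300 (0.99), AT5G15190 (0.99), AT4G08820 (0.98), ACLA-3 (0.98), a subunit gene of ATP citrate lyase, and AT1G28395 (0.98). Least like it were AT5G06060, AME3 and AT3G15520 (all -0.99). ACLA-3, for instance, had 740, 820.0 and 897 in mutant 1, 2 and 3 and 859, 711 and 864 in wild type 1, 2 and 3. It followed GI in being lowest in wild type 2 and highest in mutant 3.

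Most like COR27 were AT1G62660 (0.996), the jacalin-related lectin gene JAL34 (0.995), the subtilase gene SBT4.12 (0.994), AT4G30470 (0.994) and AT2G21045 (0.993), and least like it AT5G24210 (-0.998), AT4G19520 (-0.997) and AT1G55960 (-0.994). JAL34 had 1843, 2568 and 2403 in mutant 1, 2 and 3 and 2783, 1815 and 2234 in wild type 1, 2 and 3. AT1G62660 had 487, 1291 and 950.2 in mutant 1, 2 and 3 and 1424, 484 and 909.6 in wild type 1, 2 and 3. Both were lowest in mutant 1 and wild type 2 and highest in wild type 1, as COR27 was. AT4G30470, by contrast, ranged only 1.09-fold from its lowest to its highest array, where COR27 ranged 1.95-fold.

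Other cold-response genes divided over the same arrays. Of 24 listed 5 were measured and tested, and 0 of them passed. Their median log2 genotype difference was 0.045, against -0.0031 over all probe sets tested. COR47, a dehydrin gene, had 1731, 3187 and 2680.1 in mutant 1, 2 and 3 and 3123, 1708 and 2493 in wild type 1, 2 and 3. It was low in mutant 1 and wild type 2, as COR27 was (r with COR27 0.98, with GI 0.80). LTI30, another dehydrin gene and named here after its values were seen, ran likewise, with 1276, 2435 and 2027 in mutant 1, 2 and 3 and 2704, 1345 and 1725 in wild type 1, 2 and 3. Its r was 0.99 with COR27 and 0.72 with GI.

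COR15A, for a chloroplast protein of freezing tolerance, ran the opposite way. It had 1654, 1093 and 1159.7 in mutant 1, 2 and 3 and 1073, 1749 and 1274 in wild type 1, 2 and 3, with r of -0.97 with COR27 and -0.87 with GI. Its paralogue COR15B stayed between 428 and 508 on the 6 arrays (r 0.044 with COR27 and 0.26 with GI). STZ, a zinc finger repressor gene of stress responses, had its 2 highest values in mutant 1 (310.2) and wild type 2 (342), closely followed by mutant 3 (306), with r of -0.85 with COR27 and -0.52 with GI. Cold-response genes thus did not move as 1 group over the arrays: COR47 and LTI30 ran with COR27, COR15A and STZ against it, and COR15B with neither.

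Root markers moved with COR27. All 4 measured ones had an r above 0 with COR27 (0.86 to 0.95) and with GI (0.49 to 0.62). The median r over all other probe sets tested was -0.014 with COR27 and -0.019 with GI. Of those probe sets, 11.9% had an r with COR27 of at least 0.76, and 5.24% had one over 0.9. With GI 5.70% reached 0.76, which is above the r of each root marker. EXPA7 had low intensities, from 37.9 to 101, and EXPA18 ranged from 66.1 to 256. The summed intensity of the 4 root markers was 5004, 7123 and 6164 in mutant 1, 2 and 3 and 7548, 5439.6 and 5848 in wild type 1, 2 and 3. It ranged from 5004 to 7123 in the mutant and from 5439.6 to 7548 in wild type. The root ER body gene PYK10 alone had 4073, 5514 and 4889.6 in mutant 1, 2 and 3 and 6109, 4383 and 4649 in wild type 1, 2 and 3. PYK10 thus made up most of the sum on every array. The log2 of the sum had r of 0.96 with COR27 and 0.59 with GI, close to those of PYK10 alone (0.95 and 0.57). The 3 green tissue markers summed to between 26201 and 27772 in the mutant and between 26228 and 28599.5 in wild type (r 0.25 with COR27 and 0.16 with GI). The part of root share in the levels of COR27 was not tested, and in whole seedlings fewer cells of a type and less RNA per cell cannot be told apart.

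**Figure D5:**
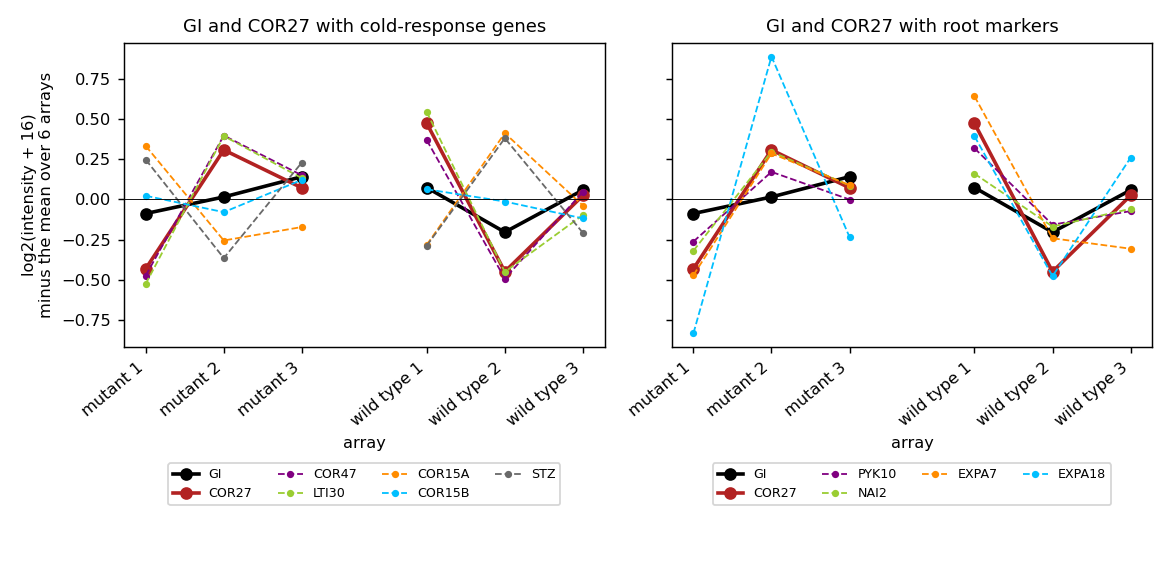
GI (black) and COR27 (red) with 5 cold-response genes (left) and 4 root markers (right), each as log2(intensity + 16) minus its mean over the 6 arrays (vertical), by array (horizontal), mutant arrays first. COR47, LTI30 and the root markers are low where COR27 is low, in mutant 1 and wild type 2. EXPA7 is slightly lower in wild type 3 than in wild type 2. COR15A and STZ are high in mutant 1 and wild type 2, STZ in mutant 3 as well.

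Few other clock genes could be read. Of 42 listed genes of the morning clock, the evening clock and photoperiodic flowering, 1 had a probe set named for it alone. That was SPY, for the sugar transferase SPINDLY, a partner of GI and repressor of gibberellin responses. SPY had 205, 192 and 207 in mutant 1, 2 and 3, against 169.9, 191 and 188 in wild type 1, 2 and 3. All mutant arrays lay above all wild type arrays, with the nearest values at 192 in the mutant and 191 in wild type, and 6.27% of all probe sets tested were as separate. Its log2 difference was 0.13 ± 0.10 (SE), with a limma adjusted p of 1.00. It did not follow COR27 (r -0.58) or GI (r -0.081). The morning-phased and the other evening-phased genes listed were not analysed here, so no transcript of opposite phase was set against the pair. HYH, a light-signalling factor gene and the 1 measured of 32 in its list, did not pass the filter on low values. The lists of core ABA signalling and of clock-controlled metabolism had 0 genes, of 18 and of 11, with a probe set named for 1 gene. That does not show that the array lacks them.

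A further list of 17 genes of clock, light and flowering function was written after the gene names on the array had been seen, and it holds SPY and HYH as well. Of these 14 passed the filter, 0 passed the test, 10 were fitted above 0 and 4 below, and the median log2 difference was 0.067. Over all 15922 probe sets tested, 7766 were fitted above 0 and 8156 below, with a median of -0.0031. TIC, or TIME FOR COFFEE, a clock regulator, had 508, 436 and 512 in mutant 1, 2 and 3 and 455, 488 and 508 in wild type 1, 2 and 3. XCT, a gene for a clock period regulator, had 118, 139 and 175 in mutant 1, 2 and 3 and 130.5, 146 and 117 in wild type 1, 2 and 3. Neither ran with the pair, at r of -0.63 with COR27 and -0.026 with GI for TIC, and 0.10 and 0.23 for XCT.

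CCL, whose transcript stability is known to be under clock control, had 4934, 4528 and 4627 in mutant 1, 2 and 3 and 5573, 4683 and 4515 in wild type 1, 2 and 3. Its genotype difference was -0.063 ± 0.090 (SE) on the log2 scale, and its r was 0.32 with COR27 and 0.079 with GI. FHL, a gene for a partner of phytochrome A, was the member of the list that ran most clearly against COR27 (r -0.97), with 70.3, 38.0 and 57.1 in mutant 1, 2 and 3 and 35.3, 75.5 and 49.3 in wild type 1, 2 and 3. The splicing factor gene STIPL1, whose mutant has a long clock period, had the lowest genotype difference of the list (-0.24 ± 0.18, SE) and AFR, an F-box gene of far-red signalling, the highest (0.17 ± 0.12, SE). Of the 14 tested, 4 had an r above 0 with COR27 and 6 with GI. The medians were -0.44 and -0.053, against -0.014 and -0.019 over all other probe sets tested.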

How the data were processed

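The authors deposited 1 table in which each array has a column of linear probe-set intensities. GCOS, the Affymetrix software, is named in the submitters' processing notes, without a version, and the sources used here do not say how values were summarised, scaled or made negative. Groups and replicate numbers came from the sample titles, and a free-text label that speaks of embryos was not used. Probe sets were named from the platform's probe table and updated through RefSeq (TAIR10.1): 13513 had 1 gene (13436 matched), 503 had several and 8730 were unnamed here. No coordinates are given, since the files name no build. Where a gene had several probe sets, that with the highest mean stood for it.

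Intensities below 0 (3919 values) were raised to 0, a floor the plan named for negative values, and transformed as log2(value + 16). The lowest 30% of probe sets by mean intensity were left out. Genotypes were compared with limma 3.58.1 in R 4.3.3 (lmFit, eBayes with trend, two-sided, Benjamini-Hochberg over the probe sets kept, threshold 0.05). The fit was tested on simulated data. GI and COR27, the lists and the tests were chosen with earlier results of these data known. Named were GI, COR27, every measured member of the clock and photoperiod lists, up to 4 of each other list by limma p, and the 5 most and 3 least like each member by r. The genes named from the further list, the markers and LTI30 are outside this rule. Where nothing says that replicates came from separate plants, p-values measure only the spread between these samples. Figures were drawn with matplotlib 3.10.9.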

Additional observations from a re-analysis of the deposited data

How the results depend on the processing

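The signs of both genotype differences, but no call, depended on single arrays. With 1 array left out the log2 difference of GI ran from -0.043 to 0.10 and turned without mutant 3 (-0.012) and without wild type 2 (-0.043), and that of COR27 ran from -0.27 to 0.20 and turned without mutant 1 (0.17) and without wild type 1 (0.20). Under the 11 other alternatives GI stayed between 0.035 and 0.074 and COR27 between -0.048 and -0.028. These were pseudocounts of 1 and 64, no filter or 50% left out, quantile normalization, median centring, eBayes without trend or robust, the replicate block, a generalized log2 and array weights, of which array weights were chosen after seeing the data. Under all 17 alternatives limma called 0 probe sets (lowest adjusted p 0.999). The 273 below 0.05 before adjustment were 619 with no filter, 117 with 50% left out and 137 with the replicate block. With the replicate number as a block GI had 0.047 ± 0.13 and COR27 -0.033 ± 0.30 (SE). The labels give no pairing, so the main fit used no block, and the block changed no call. Deviations from the genotype means of same-numbered arrays had r over probe sets of -0.59 for replicate 1, -0.48 for replicate 2 and -0.13 for replicate 3. Such values cannot show whether the numbers mark pairs. The r between GI and COR27 ran from 0.61 to 0.86 with 1 array left out and became -0.37 without mutant 1 and wild type 2, the 2 farthest from the median of GI; that leaves 4 arrays and a narrower range of GI. On the deposited intensities it was 0.71 (exact permutation p = 0.11).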
